A study of Arabidopsis thaliana with 6 samples.

Results

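The 10 regulators of the stomatal lineage followed here are the basic helix-loop-helix (bHLH) factors *SPCH*, *MUTE* and *FAMA*, their partners *SCRM* and *SCRM2*, the receptor-like protein *TMM*, the secreted peptides *EPF1* and *EPF2*, and the MYB factors *FLP* and *MYB88*. They were chosen by locus, by their known roles, with earlier results of these data known. All 10 had at least 1 matched probe on the arrays, out of 25410 loci with a matched probe in all, and 9 of the 10 passed the filter on dim probes. Expression was measured in guard cell protoplasts (GCPs), guard cells freed of their walls by enzymes, from *Arabidopsis thaliana* plants of the Columbia ecotype that all carried the homozygous recessive *gl1* mutation, which removes leaf hairs. SS plants had grown for 5 weeks under short days, with 8 h of white light at 100 µmol per square metre per second. SL plants had grown for 3 weeks under the same short days and then for 2 weeks under long days, with 16 h of light at 41 µmol per square metre per second. Each group had 3 arrays in a single colour, 1 for each of 3 independent batches of plants. By their replicate numbers, same-numbered SS and SL arrays were taken to come from the same batch. Each RNA sample came from a pool of protoplasts, so fewer cells of a type and less RNA per cell cannot be told apart. Light intensity changed together with day length and cannot be told apart from it. By the sample labels the same holds for the time of isolation, ZT8 for SS and ZT16 for SL (ZT counts hours from lights on), whereas the paper gives ZT16 for both.

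As background, stomata arise in young epidermis through a series of fate steps, each under its own bHLH factor that acts as a dimer with SCRM or SCRM2. SPCH starts the lineage with an asymmetric division, MUTE ends these divisions and makes the guard mother cell, and FAMA drives the last step into guard cells and keeps their identity. EPF peptides, secreted by cells of the lineage, are sensed by TMM together with receptor kinases of the ERECTA family, and a MAP kinase cascade then lowers SPCH activity, so that stomata do not form side by side. FLP and MYB88 stop the guard mother cell from dividing again after its single symmetric division. GCPs from mature leaves hold guard cells past most of these steps.

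Between 65.3% and 70.7% of the 43603 probes besides controls were well above background, by the flag of the scanner's software, and 0 spots were saturated. All 11 guard cell markers looked at, among them *SLAC1*, *KAT1* and *MYB60*, were measured, 10 of them well above background on all 6 arrays, and *TGG2* on 2 of the 3 SL arrays. Values below are normalized signals on a linear scale, which still contain an added offset of 50, so that the ratio of a dim probe is drawn towards 1. They are given for the brightest probe of each gene unless stated, with replicates 1, 2 and 3 in that order, and a probe's signal is set only against itself on other arrays. Differences are SL minus SS on the log2 scale from a *limma* fit with the replicate number as a block, and a difference was called where its adjusted p was under 0.05.

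Of the 9 regulators tested, 2 were called: *EPF1* was lower and *MYB88* higher in GCPs from SL plants. Over all 18001 genes tested, 4.72% were called (4.5% of 28852 probes). Without the block, 0 regulators and 0% of all probes were called by *limma*. At an unadjusted p under 0.05, the fit with the block took 5 of the 9 regulators and 4585 of the 18001 genes, and the fit without it 1 and 670. The median difference of the 9 regulators was 0.01, against 0.01 over all genes. Their median size of difference, whichever the direction, was 0.29, against 0.14. *SCRM*, *EPF2* and *MYB88* were higher, and *SPCH*, *EPF1* and *FLP* lower, in SL in each of the 3 pairs, which is 66.7% of the 9, against 48.9% of all genes. Groups that did not overlap, in either direction, were found for 8.76% of all probes and, among the regulators tested, at the brightest probe of *MYB88* alone.

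**Figure D1:**
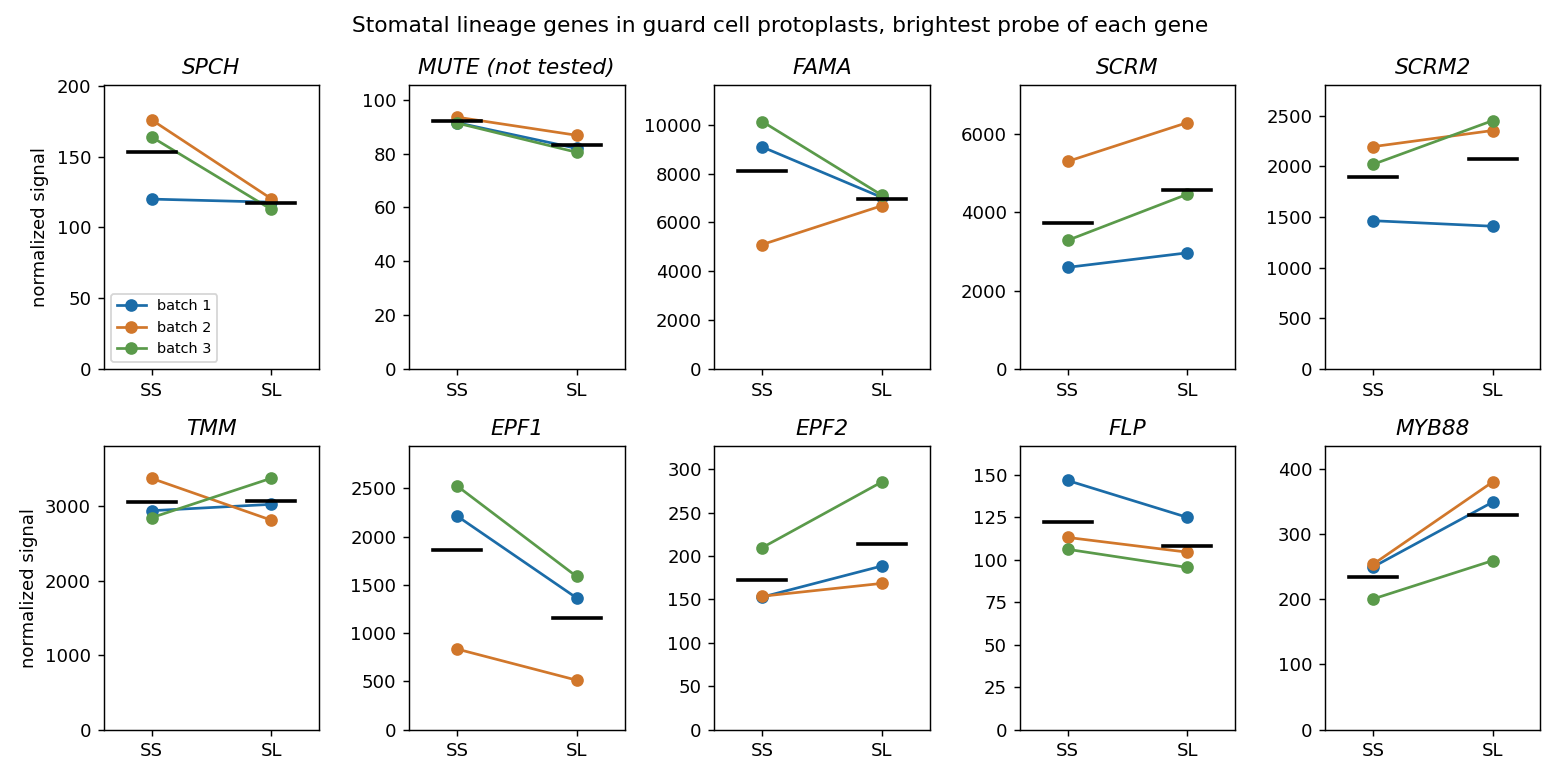
Normalized signal (linear axes from 0, a separate axis for each gene) of the brightest probe of the 10 regulators in GCPs from SS and SL plants. Each point is 1 array, lines join SS and SL of one plant batch, and black bars are group means (n = 3). The lines of *EPF1* all fall although the batches lie far apart, those of *MYB88* all rise, and those of *FAMA*, *SCRM2* and *TMM* run both ways.

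Among the bHLH factors that start the fate steps, *FAMA* (AT3G24140, on chromosome 3) was far above background on every array. It was 9091, 5094 and 10134 in SS, and 7023, 6687 and 7113 in SL. The 3 SL arrays lay close together, whereas SS replicate 2 was far below the other 2 SS arrays and below all SL arrays, so that the groups overlapped. The means were 8107 ± 2660 in SS and 6941 ± 225 in SL (SD, n = 3 each). The SL/SS ratio was 0.772, 1.31 and 0.702 in the 3 pairs, which do not share a direction. The difference was -0.16 (SE 0.18, 95% interval -0.60 to 0.27, adjusted p = 0.615 from *limma*). Without the pair of replicate 3, it was 0.01.

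*SPCH* (AT5G53210, on chromosome 5), the factor that starts the lineage, was well above background on all 6 arrays, though dim. Its raw spot intensity lay between 82.5 and 199, while the 95th percentile of the 153 negative control spots lay between 51.4 and 73.0 per array. The normalized signal was 120.0, 176.0 and 163.9 in SS, and 117.8, 120.2 and 112.7 in SL. SS replicate 1 was at the level of the SL arrays, and the other 2 SS arrays were above all of them. Ratios were 0.982, 0.683 and 0.688. The difference of -0.37 (SE 0.13, 95% interval -0.68 to -0.06) had an adjusted p of 0.151 from *limma* and was not called. Its size depended on the processing. It was -0.62 with no offset, -0.98 with the deposited series matrix values and -0.21 with 75th percentile scaling instead of quantile normalization, with no call in any of them. With both the scanner software's processed signal and that scaling, it was -1.03 and not called.

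*MUTE* (AT3G06120, on chromosome 3), which commits cells to the guard mother cell fate, was well above background on 2 of 3 SS arrays and on 0 of 3 SL arrays, and so was not tested. Its normalized signal was 91.5, 93.6 and 91.4 in SS, and 82.0, 86.8 and 80.5 in SL. All SS values lay above all SL values. As the SL values and that of SS replicate 3 are only upper bounds, no fold is given. Raw intensities of 50.5 to 84.5 exceeded the 95th percentile of the negative controls on 4 of the 6 arrays.

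The partner *SCRM* (AT3G26744, on chromosome 3; also known as *ICE1* from its part in cold acclimation) had a signal of 2591, 5293 and 3279 in SS, and 2961, 6284 and 4456 in SL. It was higher in SL within each batch, but batch 2 was high in both groups, and the groups overlapped. Ratios were 1.14, 1.19 and 1.36. The difference was 0.29 (SE 0.09, 95% interval 0.08 to 0.51, adjusted p = 0.124 from *limma*). A second *SCRM* probe was well above background on 0 arrays and gave no value.

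*SCRM2* (AT1G12860, on chromosome 1), whose protein can stand in for SCRM, gave 1463, 2194 and 2018 in SS, and 1408, 2353 and 2450 in SL. Replicate 1 was the lowest of both groups, and the groups overlapped. The ratio was below 1 in the pair of replicate 1 (0.963) and above 1 in the others (1.07 and 1.21), with a difference of 0.11 (SE 0.10, 95% interval -0.13 to 0.34, adjusted p = 0.533 from *limma*). A second probe, also well above background on all 6 arrays, had a difference of 0.04 (adjusted p = 0.838 from *limma*). Both probes thus had small differences, but they did not follow each other over the arrays (Pearson r = -0.25 over 6 arrays that share 3 batches, given as a description).

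Among the signalling genes, *EPF1* (AT2G20875, on chromosome 2) was lower in SL. Its difference was the largest of the 9 at the settings used here, but that of *SPCH* was larger with the processed signal scaled to the 75th percentile (-1.03 against -0.71) and with the deposited series matrix values (-0.98 against -0.76). EPF1 is a peptide secreted by late precursors and young guard cells that orients divisions in neighbouring cells. Its signal was 2215, 836 and 2527 in SS, and 1365, 513 and 1588 in SL. Batch 2 was low in both groups, and its SS array lay below the SL arrays of the other batches, so that the groups overlapped. Within a batch, SL was lower by nearly the same factor each time, with SL/SS ratios of 0.616, 0.614 and 0.628 (mean 0.619 ± 0.0077, SD, n = 3 pairs). The difference was -0.69 (SE 0.08, 95% interval -0.88 to -0.50), with an adjusted p of 0.0164 from *limma*.

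The precision of this value rested on the block, which takes the level of each batch out of the comparison. For *EPF1*, the log2 signal averaged over a batch had an SD of 0.88 among the 3 batches, and 0.873% of 17994 genes had one as large or larger. The differences within its pairs had an SD of 0.018. Over the 6 arrays the signal ranged 4.93-fold. Without the block, the same difference had an SE of 0.57 and an adjusted p of 1.00 from *limma*. The exact permutation test gave p = 0.5 for 3 arrays against 3 and p = 0.25 for the 3 pairs, both two-sided, where the smallest possible values are 0.1 and 0.25. With a pair left out, the adjusted p from *limma* was 0.0867 without replicate 1, 0.151 without replicate 2 and 0.0112 without replicate 3, and the difference lay between -0.70 and -0.68. Of all 28852 probes, 51 were called without replicate 1, 0 without replicate 2 and 2609 without replicate 3. Where a single array was left out, in a fit with no block, the batches no longer balanced, and the difference was -0.18 without SL replicate 2 and -1.19 without SS replicate 2. With 75th percentile scaling instead of quantile normalization, *EPF1* also lost its call (adjusted p = 0.0823 from *limma*, difference -0.67), as it did with the processed signal scaled in the same way (0.0545, difference -0.71).

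Summed marker signals of 3 cell types, mesophyll, guard cells and epidermis, moved along with *EPF1*, though single markers did not all do so. Those of dividing cells and phloem, given further below, did not. Of 8 genes of mesophyll, the photosynthetic tissue of the leaf, all well above background on the 6 arrays, 4 were called lower in SL, namely *RBCS1A* (-0.96), *RCA* (-0.74), *SHM1* (-0.67) and *PRK* (-0.66). In all, 6 were lower in each pair, and *CA1* and *GLDP1* higher. The summed signal of the 8 genes was 67282, 42824 and 79189 in SS, and 42253, 25129 and 42555 in SL. Guard cells also have chloroplasts and express such genes. Of the 11 guard cell markers, 5 were lower and 0 higher in each pair, and 1 was called, *TGG2* (-1.16, adjusted p = 0.0173 from *limma*), a myrosinase. Their summed signal was 109912, 90750 and 152785 in SS, and 101830, 87996 and 124800 in SL. That of 4 epidermis markers, of which 0 were called, was 13714, 11753 and 23467 in SS, and 11895, 10756 and 15576 in SL. All 3 sums were lowest in batch 2 in both groups, as *EPF1* was, and lower in SL in each pair. The brightest genes weigh most in a sum, and single markers differed. *FDH* of the epidermis and the guard cell markers *SLAC1* and *TGG1*, for example, were lowest in batch 1 in both groups. Of the 4 epidermis markers, 2 were lower and 0 higher in each pair. The part of these cell types in the difference of *EPF1* was not tested.

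*EPF2* (AT1G34245, on chromosome 1), a related peptide that limits entry into the lineage, went the other way. Its signal was 152.8, 153.7 and 209.7 in SS, and 188.6, 168.5 and 285.5 in SL. Each SL array was above the SS array of its batch, and replicate 3 was the highest in both groups. The groups overlapped, as SS replicate 3 lay above the SL arrays of the other batches. Ratios were 1.23, 1.096 and 1.36, with a difference of 0.29 (SE 0.09, 95% interval 0.06 to 0.52, adjusted p = 0.135 from *limma*), which was not called.

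*TMM* (AT1G80080, on chromosome 1), a leucine-rich repeat protein with no kinase domain that helps receptors sense EPF peptides, had the smallest range over the arrays of the 9. Its signal was 2942, 3377 and 2848 in SS, and 3028, 2815 and 3379 in SL. The groups covered almost the same range, and the highest array of all was 1.20-fold above the lowest. The mean was 3056 ± 282 in SS and 3074 ± 285 in SL (SD, n = 3 each). The difference was 0.01 (SE 0.12, 95% interval -0.27 to 0.29, adjusted p = 0.973 from *limma*), so that a fold change between 0.827 and 1.22 was within its interval. Among the batches its SD was 0.030, and 97.9% of genes had one as large or larger. Within pairs it was less steady, with SL/SS ratios of 1.03, 0.834 and 1.19. The differences within its pairs had an SD of 0.26, against a median of 0.15 over all genes.

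**Figure D2:**
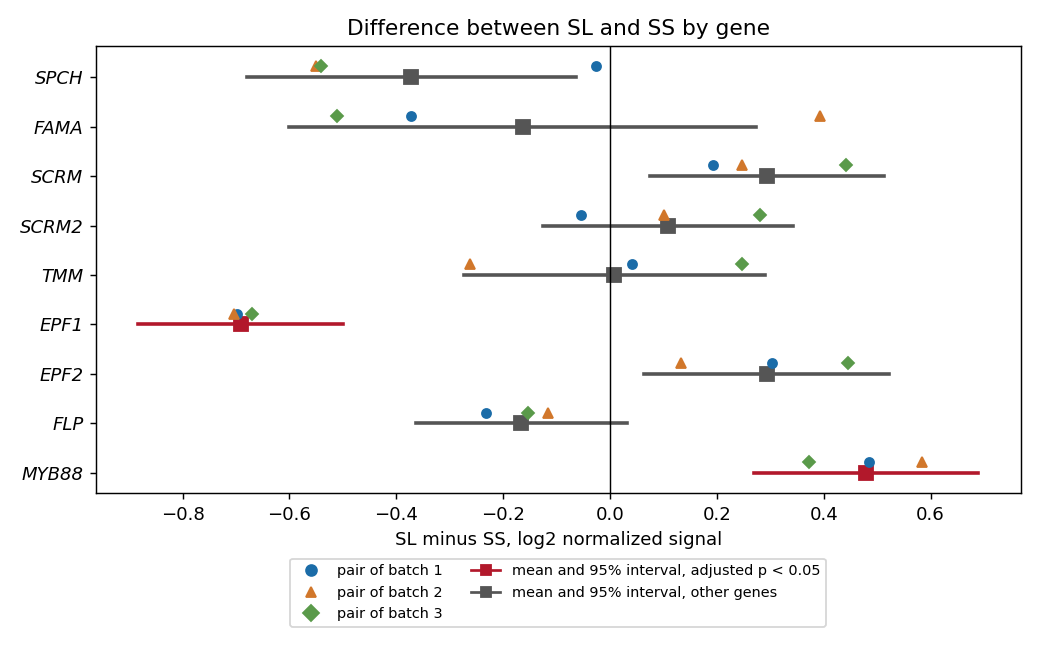
Difference between SL and SS (SL minus SS, log2 normalized signal) for the 9 regulators tested. Small symbols are the 3 pairs, squares the mean with its 95% interval from *limma* with the replicate number as a block, and red marks an adjusted p under 0.05. The 3 pairs of *EPF1* lie between -0.70 and -0.67, whereas those of *FAMA*, *SCRM2* and *TMM* lie on both sides of 0.

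*MYB88* (AT2G02820, on chromosome 2), which with FLP limits the division of the guard mother cell, was measured by 4 probes, all well above background on the 6 arrays. The brightest gave 249.2, 253.2 and 200.1 in SS, and 348.6, 379.5 and 259.0 in SL. The groups did not overlap, although SL replicate 3 was only a little above SS replicate 2. The mean was 234 ± 29.6 in SS and 329 ± 62.6 in SL (SD, n = 3 each), and ratios were 1.399, 1.499 and 1.29. The difference was 0.48 (SE 0.09, 95% interval 0.27 to 0.69, adjusted p = 0.0408 from *limma*). By the exact permutation test of 3 arrays against 3, p was 0.1, the smallest this design allows.

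The other 3 probes of *MYB88* were also higher in SL in each pair, by 0.37 (adjusted p = 0.0924), 0.23 (0.220) and 0.21 (0.178, all from *limma*), and none of these was called. At the last of them the groups again stood apart. The probes with 0.23 and 0.21 were dim, with raw intensities of 96.5 to 191 and 90 to 129. The sizes depended on the processing. In the same order, they were 0.48, 0.35 and 0.38 with no offset. With the processed signal scaled to the 75th percentile they were 0.49, 0.44 and 0.58, and none was called in either setting. The 4 probes followed each other closely, with Pearson r between 0.82 and 0.96 over the 6 arrays. As they read the same gene in the same samples, they are not replicates of the condition. With a pair left out, 51 of all 28852 probes were called without replicate 1, 0 without replicate 2 and 2609 without replicate 3. The call at the brightest probe of *MYB88* ended without replicate 1 (adjusted p = 0.171 from *limma*) and without replicate 2 (0.225), but not without replicate 3 (0.0253). It also ended without the block (1.00), after scaling to the 75th percentile (0.136, and 0.0636 for the processed signal) and with the deposited series matrix values (0.0618). Its difference lay between 0.48 and 0.67 over the settings with all arrays, between 0.43 and 0.53 without a pair, and between 0.37 and 0.64 without a single array in a fit with no block.

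**Figure D3:**
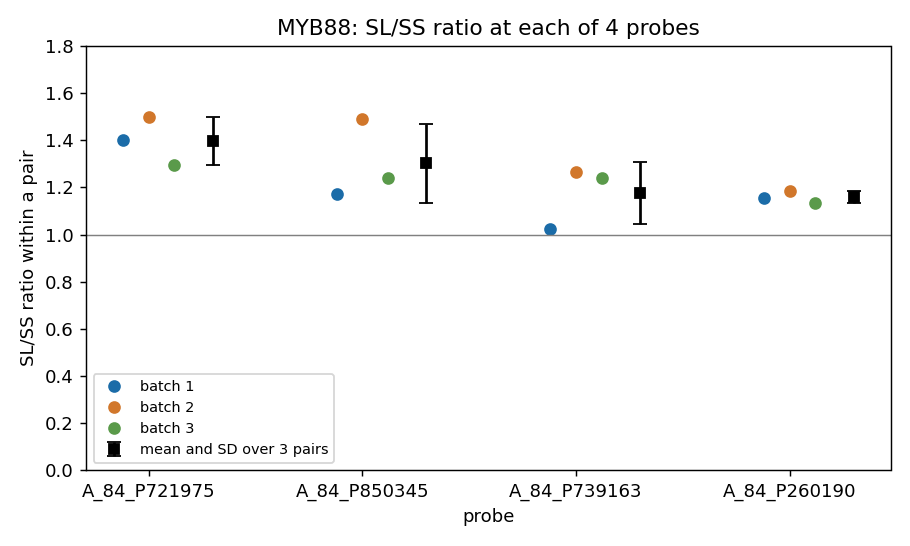
SL/SS ratio of the normalized signal (linear axis from 0) at each of the 4 probes of *MYB88*. Coloured points are the 3 plant batches, and black squares with bars are the mean and SD over the 3 pairs. All ratios lie above 1, between 1.02 and 1.499.

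*FLP* (AT1G14350, on chromosome 1), a close paralog of *MYB88*, was not called and leaned the other way. Its brighter probe gave 146.6, 113.1 and 106.1 in SS, and 124.9, 104.4 and 95.4 in SL. Each SL array was a little below the SS array of its batch, replicate 1 was the highest in both groups, and the groups overlapped. Ratios were 0.852, 0.923 and 0.899, and the difference was -0.17 (SE 0.08, 95% interval -0.36 to 0.03, adjusted p = 0.271 from *limma*). The probe was dim, with raw intensities of 78.5 to 128, and the difference was -0.51 with the processed signal and -0.02 with the normexp signal, both scaled to the 75th percentile. A second probe was well above background on 1 of 6 arrays, in SS, and was not tested. The difference between the effects on *FLP* and on *MYB88* was not tested.

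Of 36 other genes of the stomatal pathway, 28 passed the filter, and 0 were called, with or without the block (*limma*). At an unadjusted p under 0.05 there were 7 of the 28 with the block, against 4585 of all 18001 genes, and 0 without it, against 670. The median difference of the 28 was 0.04, and 8 were higher and 6 lower in SL in each pair. Named here are the 3 highest and the 3 lowest of the 28, those that were not measured, and, chosen after their values were seen, *EPFL6*, *SDD1*, *MPK3* and *MPK6*.

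Among ligands and processing enzymes, 2 of 6 passed the filter. *EPFL9*, which encodes the mesophyll-made peptide stomagen that promotes stomata, was well above background on 1 of 6 arrays. *EPFL4* and the protease gene *CRSP* were so on 0 arrays, and *EPFL5* on 1. *EPFL6* (0.13) and the protease gene *SDD1* (-0.02) were tested.

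All 7 receptor kinase genes were measured, and they moved both ways. *ERL2*, an ERECTA family receptor that senses EPF peptides, had a signal of 376, 349 and 310 in SS, and 666, 438 and 341 in SL. It was higher in SL within each batch, but SL replicate 3 lay below the SS arrays of the other batches (0.43, SE 0.14, adjusted p = 0.141 from *limma*). Its relatives *ERL1* (-0.25, adjusted p = 0.133) and *ERECTA* (-0.19, adjusted p = 0.225, both from *limma*) were lower in each pair. The coreceptor gene *SERK2* gave 2789, 1746 and 4821 in SS, and 2490, 1163 and 2232 in SL. SS replicate 3 stood far above the rest, and the difference of -0.62 had an SE of 0.18 and an adjusted p of 0.106 from *limma*. Of the 7 genes, 2 were higher and 4 lower in each pair.

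In the MAP kinase cascade, 6 of 7 genes were measured, with *MKK7* on 0 arrays. *MKK9*, a MAP kinase kinase gene, had the highest of their differences (0.36, SE 0.09, adjusted p = 0.0891 from *limma*), and *MPK3* and *MPK6*, the kinases at the end of the cascade, had -0.0017 and 0.20. Among the polarity and phosphorylation genes, 6 of 7 were measured. *BIN2*, the kinase that brassinosteroids switch off, was higher in each pair (0.33, SE 0.10, adjusted p = 0.117 from *limma*), and *BASL*, which marks the polar side of a dividing lineage cell, was well above background on 1 of 6 arrays. Of the 9 genes of division and late differentiation, 7 were measured, and their differences lay between -0.18 and 0.07. In that group *CYCD7;1*, a cyclin of the guard mother cell division, was well above background on 3 of 6 arrays, and *CYCD5;1* had no matched probe.

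**Figure D4:**
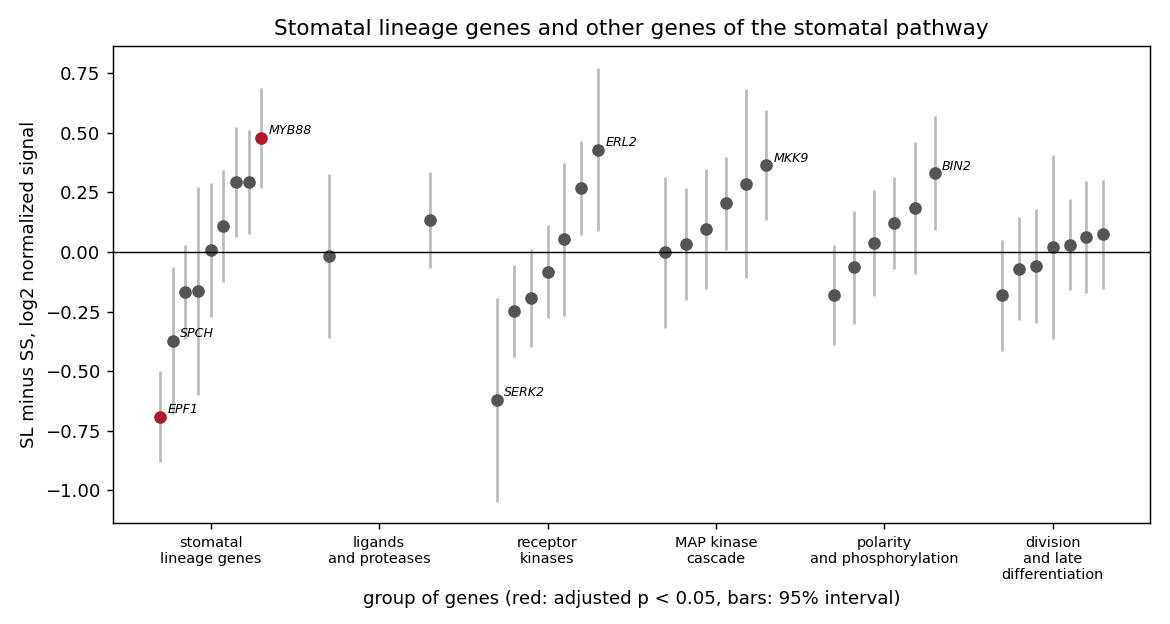
Difference between SL and SS (SL minus SS, log2 normalized signal) for the 9 regulators and for 28 other genes of the stomatal pathway, grouped by role. Points are genes with their 95% intervals from *limma* with the replicate number as a block, and red marks an adjusted p under 0.05. Both red points, *EPF1* and *MYB88*, are among the regulators, and the other genes lie between -0.62 and 0.43.

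Markers of other cells were on the arrays too. All 7 genes of dividing cells, among them *KNOLLE* and *CYCB1;1*, were well above background on all 6 arrays, and 0 were called. Their summed signal was 941, 1113 and 833 in SS, and 1133, 1152 and 916 in SL, with the offset of 50 in each gene's signal. Opposite to *EPF1*, this sum was higher in SL in each pair and highest in batch 2 in both groups. Of the 7 genes, 3 were higher and 0 lower in each pair. *CYCB1;1* lay between 94.8 and 111.7 and *TOPII* between 103 and 116, as dim as *FLP*, while *KNOLLE* lay between 145 and 227. Of the 4 epidermis markers, 3 were well above background on all arrays, and *PDF1* on 1 of the 3 SL arrays. Sums of the phloem markers were 731, 662 and 555 in SS, and 741, 656 and 559 in SL, with pairs in both directions. Both phloem markers were measured, and 0 were called. Their part in the values of the regulators was not tested.

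The batches differed at several regulators besides *EPF1*. An SD among batches as large as that of *SCRM* (0.53) was found for 9.21% of genes, and as large as that of *SCRM2* (0.37) for 22.9%. For *EPF2* (0.33), *FAMA* (0.29), *MYB88* (0.24), *FLP* (0.22) and *SPCH* (0.15), these shares were 29.4%, 36.1%, 46.3%, 50.4% and 69.9%. *EPF1* thus stood at one end of the regulators and *TMM* at the other. The 6 arrays come from only 3 batches, and genes that vary with the batch resemble each other for this reason alone.

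The genes most like each regulator over the 6 arrays are given as a description, by Pearson r among 18000 genes. For *EPF1* they were *PHR2*, *GRF11*, which encodes a 14-3-3 protein, and AT2G42290, each with r of 0.998, and 876 genes had an r above 0.95. *FAMA* was closest to *PHV*, a homeodomain transcription factor of leaf polarity (0.992), AT4G33380 and *MAA3*, and 30 genes were above 0.95. *MYB88* was closest to AT1G23850 (0.999), *RABC2b* and AT1G15190 (103 genes), and *FLP* to *ASG5* (0.998), AT1G63980 and AT2G03330 (100 genes). For *SCRM* they were *TTL4* (0.998), AT1G03370 and AT1G34380 (265 genes), and for *SCRM2* *PI4K GAMMA 4* (0.999), AT4G39560 and AT4G30150 (169 genes). *EPF2* was closest to *SBT4.12* (0.996), AT3G01560 and AT5G04480 (94 genes). *SPCH*, closest to AT4G39930 (0.981), *RWA4* and *ST2B*, and *TMM*, closest to AT3G26147 (0.977), AT1G74055 and *ACI1*, had only 5 and 4 genes above 0.95. None of the named genes was itself among the 10 regulators or the 36 pathway genes.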

How the data were processed

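Per the labels, RNA of GCPs was labelled with a single dye and hybridized to 6 Agilent arrays. The authors extracted spots with Feature Extraction 11.5.1.1, and the deposited intensity values (median signal, local background and processed signal) were not normalized between arrays. The deposited series matrix was used only as an alternative. Here, the median intensity was corrected with normexp (offset 50) and quantile normalized over 6 arrays in *limma* 3.58.1 (R 4.3.3). Control spots and outlier spots were left out, and spots of a probe were averaged. Kept were probes that stood well above background throughout at least 1 group (all 3 arrays; 28852 of 43603). The depth of a microarray is its signal over background, and the number of arrays limits precision. RefSeq accessions named 78.8% of probes, and the brightest probe stands for a gene.

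SL and SS were compared by *limma* with the replicate number as a block and Benjamini-Hochberg adjustment over the 28852 probes, at 0.05. The numbers were taken to pair the samples, as each stands for an independent plant batch in the submitters' description. Deviations of same-numbered arrays from their group means correlated at 0.71, 0.855 and 0.739, others between -0.58 and -0.161. Deviations from a mean of 3 arrays sum to 0, so positive values for same-numbered arrays push the others below 0. The negative values are therefore no separate evidence for the pairing. Replicate 1 lay on 1 slide and the rest on another. Exact permutation tests cannot go below 0.1 for 3 arrays against 3 or 0.25 for 3 pairs. The fit was also run on data simulated from the fit with the block itself, which cannot show whether the pairing or the calls hold. Alternatives were no block, the slide as a block, other background corrections, scalings and filters, the methods' t-test, and leaving out each array or pair.

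Named are the 10 regulators, pathway genes that were called and the 3 highest and 3 lowest, and the 3 genes most correlated with each regulator. Markers, genes that were not measured and, chosen after their values were seen, *EPFL6*, *SDD1*, *MPK3* and *MPK6* are named besides. The members and lists were chosen with earlier results of these data known. Sequences are not given here.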

Additional observations from a re-analysis of the deposited data

How the results depend on the processing

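The count of probes called, 1297 (70.2% of them lower in SL), was 0 with no replicate block, with the slide as a block and by the methods' t-test, 561 (77% lower) with the processed signal scaled to the 75th percentile, 47 (78.7%) with that scaling after normexp, and 685 (75.6%) with the deposited series matrix values. The methods' t-test took 1365 probes at an unadjusted p under 0.05, and *limma* 1185 without the block. Of the 9 regulators, 2 were called, against 0 without the replicate block, with the slide as a block, by the methods' t-test and under both scalings, and 1 (*EPF1*) with the series matrix. Leaving out pairs, or single arrays in a fit with no block, gave 0 to 2609 probes and 0 to 2 regulators. The largest count came without the pair of replicate 3, with 53.2% lower. The cause was not tested. Other background corrections and filters, and quantile normalization by slide, kept both calls. With all arrays, 0 of the 9 regulators changed direction. With an array or a pair left out, *FAMA* lay between -0.47 and 0.028, *SCRM2* between -0.066 and 0.37 and *TMM* between -0.11 and 0.14, and the rest kept their direction, with *EPF1* between -1.19 and -0.18, *SCRM* between 0.031 and 0.58, *EPF2* between 0.067 and 0.45, *FLP* between -0.27 and -0.026, *SPCH* between -0.55 and -0.26 and *MYB88* between 0.37 and 0.64. With 3 pairs, an SE of about 0.08 to 0.18 limited what could be called, and *MUTE*, *SPCH* and *FLP* lay near background.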
